A study of Bos taurus with 6 samples.

Results

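The genes described here encode the carrier proteins of the inner mitochondrial membrane and the machinery that imports proteins into mitochondria. They were taken as every gene whose symbol in the array's annotation begins with SLC25A, TIMM or TOMM, each represented by its brightest probe, judged by the log2 intensity averaged over the 2 channels. This gave 58 genes on 97 probes, of 15214 named genes on the array: 37 carriers (SLC25A), 11 TIMM genes and 10 TOMM genes. Of these, 56 were bright enough to be tested, namely 36 carriers, 10 TIMM and 10 TOMM genes. The other two were SLC25A46, above background on 0 arrays in either cell type, and TIMM17B, above background on 2 arrays in each.

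RNA of bovine blastocysts was compared with RNA of bovine granulosa cells, both from Holstein cattle, on 6 oligonucleotide arrays. Blastocysts were produced in vitro from oocytes of 3 to 6 mm follicles of slaughterhouse ovaries, fertilised with mixed semen of 3 bulls, grown in synthetic oviduct fluid with albumin and collected on day 7. Granulosa cells, which nourish the oocyte inside its follicle and make oestradiol, came from lactating cows between days 8 and 11 after oestrus. They were aspirated from follicles over 5 mm, 44 h after the last of 6 injections of 40 mg follicle-stimulating hormone, and picked under a microscope. Each of 3 replicates paired a pool of blastocyst RNA with a pool of granulosa RNA, and was hybridised with the dyes in both orientations. The labels used here do not say how many animals stand behind a pool, so p-values reflect variation among 3 pools per cell type, some of which may be technical.

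Carriers of the SLC25 family move nucleotides, phosphate, organic acids, amino acids, cofactors and metal ions across the inner membrane, which is otherwise closed to them. Nearly all mitochondrial proteins, the carriers included, are made in the cytosol and enter through the TOM complex of the outer membrane. From there the TIM23 complex threads proteins with a leader peptide into the matrix, while the small TIM chaperones escort carriers across the intermembrane space to the TIM22 complex, which inserts them into the inner membrane. Mammalian embryos before implantation carry mitochondria inherited from the oocyte, and granulosa cells use theirs for energy and for the first step of steroid synthesis.

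Blastocyst markers fixed for the check were higher in blastocysts for 8 of 12 genes, with POU5F1, NANOG and IFNT above background on no array in the granulosa channel. The blastocyst markers that did not pass were KRT8, CDX2, GATA3 and SOX2. Their log2 ratios of blastocyst over granulosa were 4.10 ± 2.38, 0.26 ± 0.06, 0.18 ± 0.27 and -0.04 ± 0.09 (SD, n = 3 each). KRT8 had an adjusted p of 0.0932 in limma. Of 9 granulosa markers tested, INHA, INHBA and FST were higher in granulosa cells, while FOXL2 was above background on no array and CYP19A1 varied between granulosa pools, at a log2 intensity of 10.41, 8.72 and 13.11. NR5A2 alone among the granulosa markers went the other way. Its log2 ratio of blastocyst over granulosa was 1.15 ± 0.74 (SD, n = 3), higher in blastocysts on 6 arrays, but it did not pass. HSD17B1 was near 0, at -0.20. The granulosa pools also varied in genes listed as markers of other cells. The mean log2 level of 5 fibroblast markers was 11.96, 12.83 and 8.91 in granulosa pools 1 to 3, against 7.88, 7.65 and 8.67 in the blastocyst pools. The mean of 6 leukocyte markers was 9.32, 8.42 and 7.4 in granulosa pools 1 to 3, that of 5 endothelial markers 8.90, 8.93 and 7.16, that of 4 theca markers 7.54, 7.88 and 8.08, and the epithelial genes EPCAM and CDH1 were at 9.51, 14.54 and 7.33 and at 7.05, 7.03 and 7.16. Of the theca markers only HSD3B1 (8.46, 9.43 and 10.36) and LHCGR (6.87, 7.15 and 7.35) rose over granulosa pools 1 to 3. CYP17A1 was at 7.15, 7.13 and 7.05 and INSL3 at 7.68, 7.79 and 7.58. None of the 5 fibroblast, 6 leukocyte, 5 endothelial and 4 theca markers passed between the cell types, and each of these 20 was above background on at least 1 granulosa array. In RNA of whole pools, fewer cells of a type and less RNA per cell cannot be told apart.

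Of the 56 genes tested, 6 were higher in blastocysts: the adenine nucleotide carrier SLC25A5, the oxodicarboxylate carrier SLC25A21, SLC25A40, a paralog of a glutathione importer, and the import genes TIMM23, TIMM17A and TIMM8A. Higher in granulosa cells were 2 carriers, SLC25A12, which exchanges aspartate for glutamate, and SLC25A14, an uncoupling-protein-like carrier. The remaining 48 did not pass. A gene passed at an adjusted p under 0.05 in limma, with Benjamini-Hochberg adjustment over all tested probes, if its log2 ratio was also 1 or more in size. Over all 13227 genes tested, 5.72% passed as higher in blastocysts and 7.68% as higher in granulosa cells; among the genes described here the shares were 10.7% and 3.57%. The median log2 ratio of blastocyst over granulosa was 0.08 over the 56 genes (0.09, 0.14 and 0.07 in replicates 1 to 3) and -0.02 over all genes. With replicate 2 left out, no gene on the whole array passed in limma, although 3891 genes, 19 of them described here, had an unadjusted p under 0.05. With replicate 1 or replicate 3 left out, 4 of the 56 passed each time, and 1031 and 1306 genes passed on the whole array. SLC25A21 and SLC25A40 passed in both of these fits, whereas SLC25A5, TIMM23 and SLC25A12 passed in neither, with adjusted p reaching 0.0842, 0.098 and 0.143 in limma over the 3 omissions. TIMM8A was lost without replicate 3, and TIMM17A and SLC25A14 without replicate 1.

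**Figure D1:**
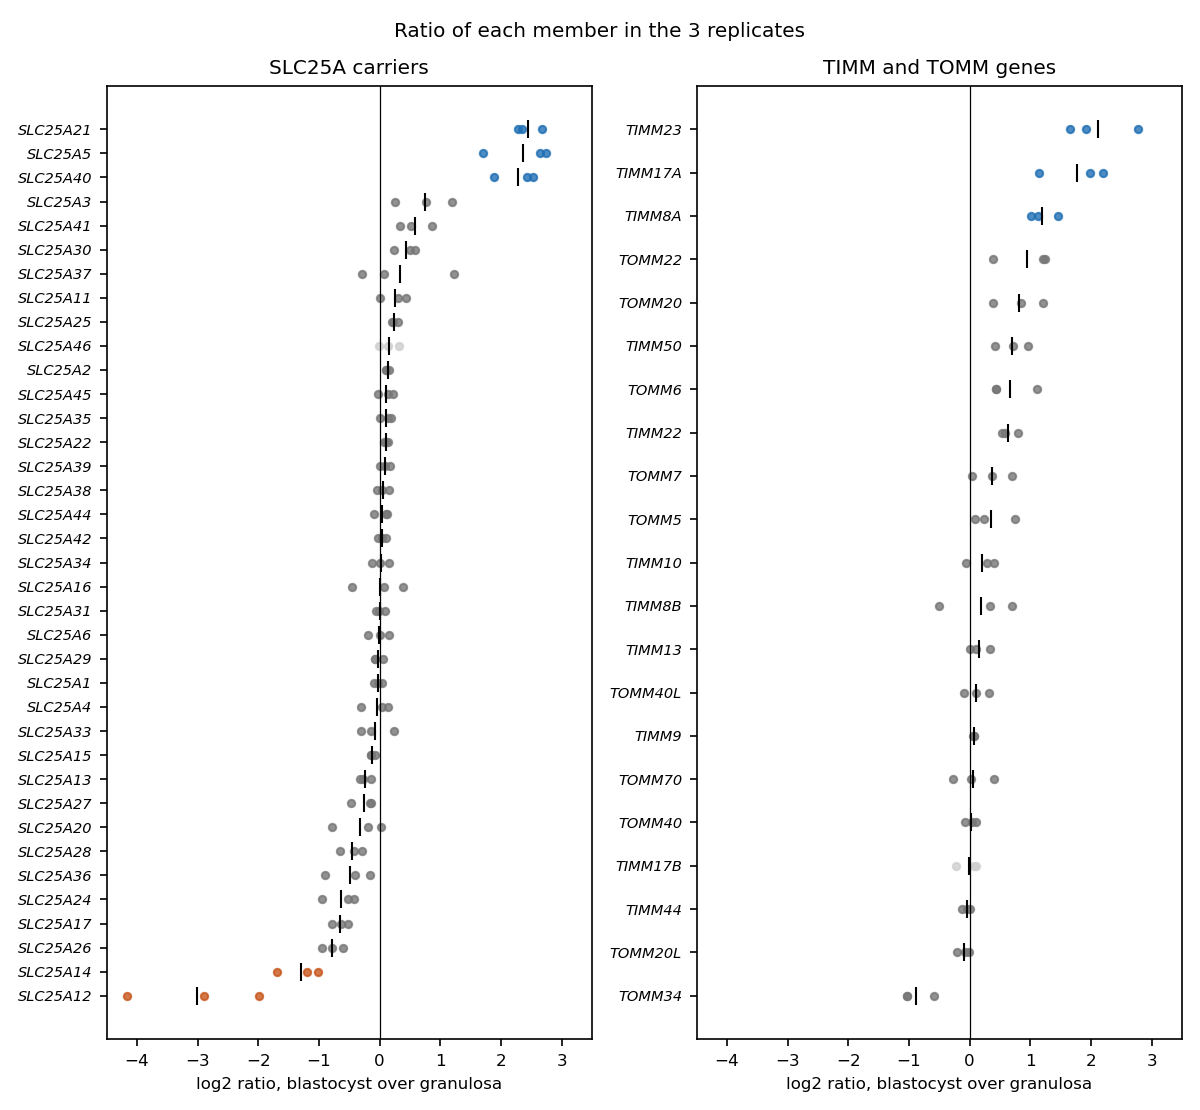
Log2 ratio of blastocyst over granulosa RNA for the 58 genes, carriers on the left and TIMM and TOMM genes on the right, ordered by their mean. Points are the 3 replicates and the bar is their mean; blue marks genes that passed as higher in blastocysts, orange those that passed as higher in granulosa cells, grey the rest, and pale grey SLC25A46 and TIMM17B, which were not tested. Most carriers sit within 0.5 of 0, and 17 of the 20 import genes tested lie to the right of it.

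The import genes and the carriers were distributed differently around 0, as a description without a test. The ratio was above 0 for 17 of 20 import genes tested (85%) and for 19 of 36 carriers (52.8%), against 46.6% of all genes. The median log2 ratio was 0.28 for import genes and 0.01 for carriers. By replicate, the median of the import genes was 0.30, 0.55 and 0.10, and that of the carriers 0.03, -0.03 and 0.05. An absolute log2 ratio under 0.5 was found for 26 of 36 carriers (72.2%) and 11 of 20 import genes (55%), against 62.8% of all genes.

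The TIM23 complex, whose pore subunits are TIMM23 and TIMM17, held the largest differences among the import genes. TIMM23 had a log2 intensity of 11.71, 11.80 and 11.84 in blastocyst pools 1 to 3 and of 9.80, 9.02 and 10.19 in granulosa pools 1 to 3. The blastocyst pools lay close together and all above the granulosa pools, which were spread over more than 1 log2 unit. Its log2 ratio was 2.11 ± 0.59 (SD, n = 3), a 4.32-fold difference with an adjusted p of 0.0269 in limma. TIMM17A, the partner of TIMM23 in that pore, was at 11.06, 10.55 and 10.23 in blastocysts and at 8.88, 8.55 and 9.09 in granulosa cells. Here it was the blastocyst pools that were spread more widely, and the groups did not overlap. The log2 ratio of TIMM17A was 1.77 ± 0.56 (SD, n = 3; 3.42-fold), with an adjusted p of 0.0331 in limma, and it was 1.80 with an adjusted p of 0.0509 on the deposited net intensities (0.000534 to 0.157 over 15 alternatives). Its paralog TIMM17B was too dim to be tested, at 6.66, 7.03 and 7.26 in blastocysts and 6.87, 6.95 and 7.15 in granulosa cells.

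TIMM50 and TIMM44, which serve the same complex, did not pass. TIMM50, the receptor that takes over the leader peptide, was at 8.81, 9.04 and 8.69 in blastocysts and at 8.10, 8.06 and 8.27 in granulosa cells. The groups did not overlap, yet the log2 ratio of 0.70 ± 0.27 (SD, n = 3) had an adjusted p of 0.0528 in limma. TIMM44, which tethers the mitochondrial Hsp70 motor to the channel, had a log2 ratio of -0.05 ± 0.06 (SD, n = 3) on a dim probe, with levels between 7.42 and 7.62 in all 6 pools. Among the genes described here, 2 of 4 tested genes of the TIM23 complex passed, and the median log2 ratio of these 4 was 1.24. The subunit TIMM21, which the array's annotation lists under an older symbol, is not among the 4. Its log2 ratio was below 0 and is given with TIMM22 below.

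Of the small TIM chaperones, TIMM8A alone passed among 5 tested. TIMM8A, which pairs with TIMM13 and whose loss causes deafness-dystonia syndrome in humans, was at 10.34, 10.15 and 10.53 in blastocysts and at 8.89, 9.03 and 9.52 in granulosa cells. All blastocyst pools exceeded all granulosa pools, and the ratio ranged from 0.95 to 1.48 over the 6 arrays. Its log2 ratio was 1.20 ± 0.23 (SD, n = 3; 2.29-fold; adjusted p of 0.0165 in limma). Its paralog TIMM8B was bright in every pool, at 12.74, 12.70 and 12.82 in blastocysts and 12.04, 12.37 and 13.32 in granulosa cells. The groups overlapped, since granulosa pool 3 was above the blastocyst pools and the other two granulosa pools were below them. The log2 ratios of TIMM9, TIMM10 and TIMM13, the other escorts, were 0.07 ± 0.02, 0.21 ± 0.24 and 0.15 ± 0.17 (SD, n = 3 each).

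TIMM22, the channel that inserts carriers into the inner membrane, was at 8.32, 7.99 and 8.04 in blastocysts and at 7.74, 7.19 and 7.51 in granulosa cells, without overlap. Its log2 ratio of 0.64 ± 0.14 (SD, n = 3) had an adjusted p of 0.0249 in limma and did not reach the minimum ratio of 1. Of 4 genes whose current symbols would match but whose older symbols in the array's annotation do not, TIMM21, TIMM29, TIMM10B and SLC25A51, none passed. Their log2 ratios were -0.75 ± 0.21 for TIMM21 (a TIM23 subunit), -1.20 ± 0.60 for TIMM29 (a TIM22 subunit), 0.51 ± 0.07 for TIMM10B and -0.36 ± 0.16 for SLC25A51, the NAD carrier (SD, n = 3 each). The adjusted p of TIMM21 and TIMM10B was 0.0318 and 0.0204 in limma, with ratios under the minimum. TIMM21 was at 8.99, 9.56 and 9.80 in blastocysts and at 9.98, 10.18 and 10.43 in granulosa cells, without overlap. TIMM21, TIMM29, TIMM10B and SLC25A51 are outside the counts above.

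None of the 10 TOMM genes passed, although 8 of 10 had a ratio above 0 and their median was 0.23. The receptors TOMM22 and TOMM20 had the largest ratios. TOMM22 was at 10.87, 11.40 and 11.52 in blastocysts and at 10.48, 10.18 and 10.28 in granulosa cells. Every blastocyst pool was above every granulosa pool, and the log2 ratio was 0.95 ± 0.48 (SD, n = 3; adjusted p of 0.0778 in limma). TOMM22 passed with replicate 1 left out, at 1.23, and with median centring in place of loess, at 1.08. TOMM20, the receptor for leader peptides, was at 12.23, 12.87 and 13.01 in blastocysts and at 11.84, 11.67 and 12.16 in granulosa cells, again without overlap. Its log2 ratio was 0.81 ± 0.41 (SD, n = 3; adjusted p of 0.0778 in limma), higher in blastocysts on 6 of 6 arrays.

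The remaining TOM subunits had smaller ratios. TOMM6, TOMM7 and TOMM5, small subunits around the pore, had log2 ratios of 0.66 ± 0.39, 0.37 ± 0.33 and 0.36 ± 0.35 (SD, n = 3 each). TOMM70, the receptor for carriers and other proteins without a leader peptide, was bright and overlapped between the groups, at 12.62, 12.78 and 12.72 in blastocysts and 12.60, 12.39 and 13.00 in granulosa cells, with a log2 ratio of 0.05 ± 0.33 (SD, n = 3; adjusted p of 0.842 in limma). TOMM40, the pore itself, was dim, with levels between 7.05 and 7.39 in the 6 pools and a log2 ratio of 0.02 ± 0.09 (SD, n = 3). TOMM34, despite its name a cytosolic co-chaperone, was the one TOMM gene with an adjusted p under 0.05, on the granulosa side. It was at 7.64, 7.72 and 7.84 in blastocysts and at 8.68, 8.31 and 8.87 in granulosa cells, and its log2 ratio of -0.88 ± 0.26 (SD, n = 3; adjusted p of 0.0322 in limma) fell short of the minimum ratio.

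Of the carriers of adenine nucleotides, 1 paralog passed. SLC25A5 (ANT2), the ADP/ATP carrier typical of dividing cells, was at 13.76, 13.50 and 13.59 in blastocysts and at 11.03, 11.79 and 10.95 in granulosa cells. The blastocyst pools lay within a narrow band and the granulosa pools all lay below it, pool 2 being the nearest. The log2 ratio was 2.36 ± 0.57 (SD, n = 3), a 5.14-fold difference with an adjusted p of 0.0212 in limma, and ranged from 1.69 to 2.84 over the 6 arrays. SLC25A4 (ANT1), the form of heart and muscle, was at 12.76, 12.92 and 12.91 in blastocysts and at 12.63, 13.23 and 12.86 in granulosa cells. These groups overlapped, and the log2 ratio was -0.04 ± 0.23 (SD, n = 3; adjusted p of 0.809 in limma). SLC25A6 (ANT3) and SLC25A31 (ANT4, known from the testis) were dim in all pools, with log2 ratios of -0.01 ± 0.17 and 0.00 ± 0.07 (SD, n = 3 each). Signs that close to 0 are not fixed: that of SLC25A4 turned to 0.16 under median centring and that of SLC25A6 to 0.04. The ratio of SLC25A5 exceeded that of SLC25A4 by 2.61, 2.01 and 2.59 in replicates 1 to 3 (mean 2.40 ± 0.34, SD, n = 3). Probe sequences were not used here, so whether a probe of these closely related genes also binds a paralog's RNA was not tested.

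The other carriers of this role did not pass. SLC25A3, the phosphate carrier that supplies ATP synthase, was at 11.45, 12.19 and 12.25 in blastocysts and at 11.21, 11.00 and 11.48 in granulosa cells. Blastocyst pool 1 fell among the granulosa pools, and the log2 ratio of 0.74 ± 0.48 (SD, n = 3) had an adjusted p of 0.115 in limma. SLC25A41 and SLC25A24, both carriers of ATP-Mg and phosphate, lay on opposite sides, at 0.58 ± 0.27 and -0.64 ± 0.28 (SD, n = 3 each). SLC25A17, which works in peroxisomes, was at 11.17, 11.24 and 11.10 in blastocysts and at 11.80, 12.03 and 11.64 in granulosa cells. These levels did not overlap, and the log2 ratio of -0.65 ± 0.13 (SD, n = 3; adjusted p of 0.0224 in limma) was below the minimum ratio. The log2 ratios of SLC25A16, SLC25A25 and SLC25A42 lay between 0.00 and 0.24. Over the 11 genes of this role the median was 0.00, with 1 higher in blastocysts.

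On brightest probes, SLC25A21 had the largest ratio of the 58 genes in favour of blastocysts. With the mean of each gene's tested probes it was 1.22, below SLC25A40 at 2.28 (on its 1 tested probe), SLC25A5 at 2.23, TIMM23 at 1.8 and TIMM17A at 1.54. It carries 2-oxoadipate, an intermediate of lysine and tryptophan breakdown, in exchange for 2-oxoglutarate. Its probe was at 9.98, 10.26 and 10.13 in blastocysts and at 7.70, 7.91 and 7.45 in granulosa cells. The pools of a cell type lay within 0.47 of each other, with a gap of 2.07 between the groups. The log2 ratio was 2.44 ± 0.22 (SD, n = 3), a 5.41-fold difference with an adjusted p of 0.00671 in limma. The other carriers of organic acids stayed near 0: SLC25A1, which exports citrate, at -0.03 ± 0.06 on a dim probe, and SLC25A11, the oxoglutarate-malate carrier, at 0.25 ± 0.22 (SD, n = 3 each). SLC25A34 and SLC25A35 were at 0.02 and 0.11.

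Among the carriers of amino acids and glutathione, 1 gene passed in each direction. SLC25A40, the paralog of the glutathione importer SLC25A39, was at 11.27, 11.43 and 11.47 in blastocysts and at 9.39, 9.0 and 8.94 in granulosa cells. The groups were far apart, and the log2 ratio was 2.28 ± 0.35 (SD, n = 3; 4.85-fold; adjusted p of 0.0110 in limma). SLC25A39 itself was at 7.77, 7.81 and 7.71 against 7.76, 7.65 and 7.63, with a log2 ratio of 0.09 ± 0.08 (SD, n = 3). SLC25A12 (aralar), the aspartate-glutamate carrier of the malate-aspartate shuttle, was at 9.32, 8.50 and 10.07 in blastocysts and at 12.21, 12.66 and 12.06 in granulosa cells. Every granulosa pool exceeded every blastocyst pool, by 1.99 at the least. The log2 ratio of -3.01 ± 1.09 (SD, n = 3), 8.07-fold, was the largest of the 56 in either direction, and its spread was also the widest (adjusted p of 0.0415 in limma). SLC25A13 (citrin), the paralog with the same exchange, was at 11.57, 11.23 and 11.13 in blastocysts and at 11.91, 11.37 and 11.41 in granulosa cells. Its pools overlapped, although its ratio was below 0 on 6 of 6 arrays, and the log2 ratio was -0.25 ± 0.10 (SD, n = 3; adjusted p of 0.0847 in limma).

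The other 7 carriers of this role had log2 ratios between -0.12 and 0.13. They include SLC25A38, the glycine carrier used in haem synthesis, at 12.88, 12.28 and 12.39 in blastocysts and 12.72, 12.32 and 12.34 in granulosa cells, and SLC25A22, a glutamate carrier, at 9.99, 9.64 and 9.35 against 9.85, 9.53 and 9.28. These bright probes gave overlapping levels, with log2 ratios of 0.05 ± 0.10 and 0.11 ± 0.04 (SD, n = 3 each). The small SD of SLC25A22 hides a dependence on the dye. Its mean log2 ratio was 0.72 with blastocyst RNA in Cy3 and -0.50 with it in Cy5. The sign turned with the dye for other genes with small ratios too. Among them, in the same order of dyes, were SLC25A39 (0.42 and -0.25), SLC25A15 (0.25 and -0.50), SLC25A27 (-0.65 and 0.13) and SLC25A33 (0.21 and -0.35). The median over the 11 genes in this role was 0.05.

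SLC25A14, the uncoupling-protein-like carrier also called UCP5, was at 7.69, 7.70 and 7.83 in blastocysts and at 8.89, 8.73 and 9.52 in granulosa cells. The blastocyst pools were near the dim end of the scale and all below the granulosa pools. Its log2 ratio was -1.30 ± 0.35 (SD, n = 3; 2.47-fold; adjusted p of 0.0261 in limma). Its close relative SLC25A30 had a ratio of the opposite sign, 0.44 ± 0.18, and SLC25A27 (UCP4) one of -0.26 ± 0.18 (SD, n = 3 each), neither passing.

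The carriers of pyrimidine nucleotides and of S-adenosylmethionine all had ratios below 0. SLC25A26, which brings in S-adenosylmethionine for methylation inside the organelle, was at 12.65, 12.10 and 12.43 in blastocysts and at 13.26, 13.05 and 13.21 in granulosa cells. These did not overlap, and the log2 ratio of -0.78 ± 0.17 (SD, n = 3; adjusted p of 0.0224 in limma) was short of the minimum ratio. It comes from 1 of 7 probes of SLC25A26, and the other 6, all dimmer, had ratios between -0.16 and 0.11. The pyrimidine nucleotide carriers SLC25A36 and SLC25A33 were at -0.49 ± 0.37 and -0.07 ± 0.29 (SD, n = 3 each). SLC25A20, the carrier that brings acylcarnitines in for fatty acid oxidation, was dim and had a log2 ratio of -0.32 ± 0.43 (SD, n = 3; adjusted p of 0.326 in limma). Of the iron importers, SLC25A28 (mitoferrin 2) was at -0.45 ± 0.18, and SLC25A37 (mitoferrin 1) differed between replicates, as given below.

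**Figure D2:**
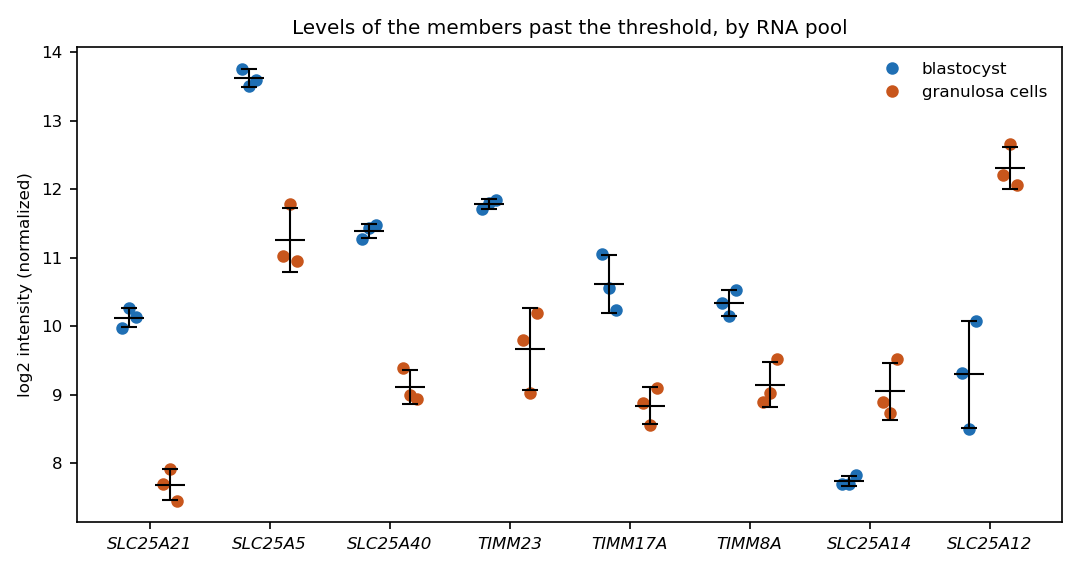
Log2 intensity, after loess within arrays and Aquantile between them, of the 8 genes that passed. Each point is 1 RNA pool (the mean of its dye-swapped arrays), and the bars are the mean and SD of the 3 pools of a cell type. No gene's blastocyst and granulosa pools overlap, and the widest spreads are those of SLC25A12 in blastocysts and of TIMM23 in granulosa cells.

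The differences between close paralogs were taken within each replicate for 10 pairs whose genes were both tested. SLC25A12 lay below SLC25A13 by log2 values of -2.55, -4.01 and -1.71 in replicates 1 to 3 (mean -2.76 ± 1.16, SD, n = 3). SLC25A40 lay above SLC25A39 by 2.19 ± 0.30, TIMM8A above TIMM8B by 1.02 ± 0.42 and TOMM20 above TOMM20L by 0.91 ± 0.51 (SD, n = 3 each). SLC25A14 lay below SLC25A30 in each replicate (-1.75 ± 0.46, SD, n = 3). With 3 replicates, an exact two-sided sign-flip permutation test cannot give a p under 0.25, which was reached by 9 of the 10 pairs (0.278 after Benjamini-Hochberg adjustment over the 10 pairs). The exception was TOMM40 against TOMM40L, at -0.08 ± 0.29 with an exact permutation p of 0.75.

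Several probes of the same gene were compared for the 25 genes that have more than 1. Of the 8 genes that passed, 6 have other probes, and 6 of these 10 other probes passed in the same direction. All 5 probes of TIMM17A passed, with log2 ratios from 1.06 to 1.84. The second probes of SLC25A5 and TIMM23 passed too, at 2.11 and 1.5. The other 2 probes of SLC25A21 had log2 ratios of 0.54 and 0.69, with adjusted p of 0.0193 and 0.0301 in limma, the same direction as the brightest probe but under the minimum ratio. The second probes of SLC25A12 and SLC25A40 were too dim to be tested and gave -0.03 and 0.09, so these genes rest on 1 probe each, as do SLC25A14 and TIMM8A, which have no other. No other probe passed for a gene whose brightest probe did not. SLC25A1 is a case where the dimmer probe differed more, at 0.61 against -0.03, and TOMM20 one where both gave nearly the same value, 0.79 and 0.81. TOMM22 had 0.95 on the brighter and 0.04 on the other probe.

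**Figure D3:**
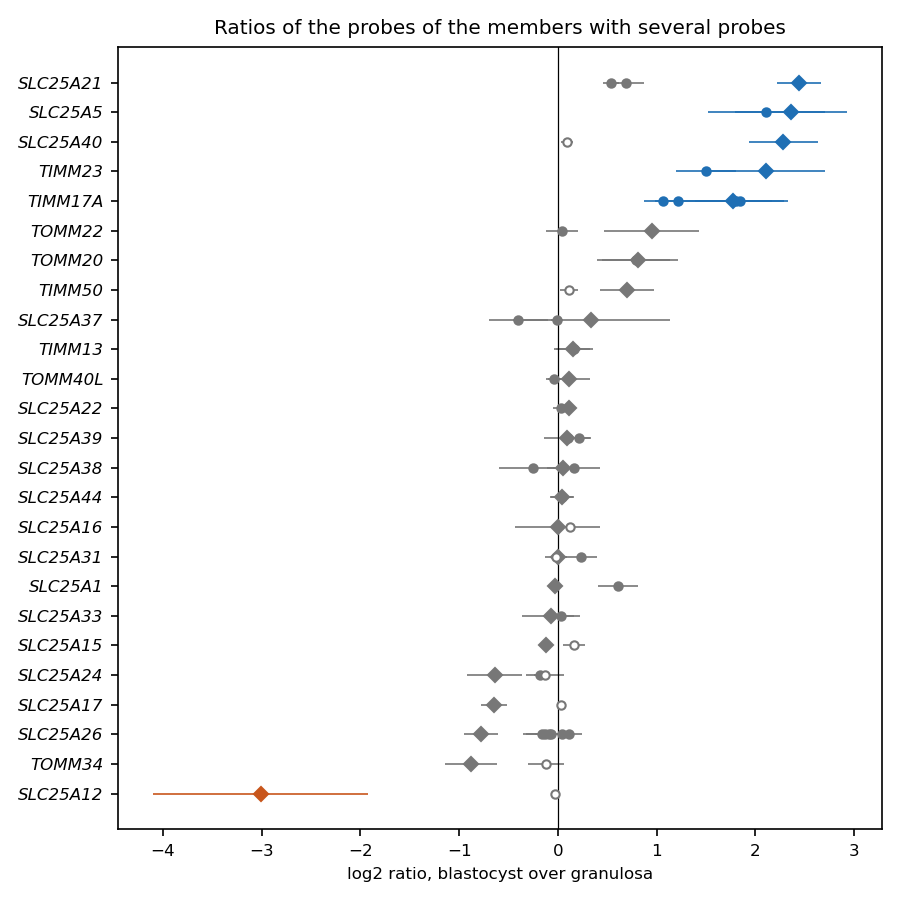
Log2 ratio of blastocyst over granulosa RNA for every probe of the 25 genes with several probes, with the SD of 3 replicates. Diamonds are the brightest probe of a gene, circles its other probes and open circles probes too dim to be tested; blue and orange mark probes that passed. The probes of TIMM17A, TIMM23 and SLC25A5 lie together, while those of SLC25A12, SLC25A21 and SLC25A40 are far apart.

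The size of the ratios followed the brightness of the probes. Split at a mean log2 intensity of 8, a boundary chosen after the values were seen, 25 of the 56 genes were dimmer and 31 brighter. None of the 25 dimmer genes passed in limma, and their median absolute log2 ratio was 0.11, with a range of -0.64 to 0.64. Of the 31 brighter genes, 8 passed (25.8%), and the median absolute log2 ratio was 0.65. Over all genes on the same sides of the boundary, 1.87% of 7006 dimmer genes and 26.4% of 6221 brighter genes passed. Of the brighter genes, 11.2% on the whole array passed as higher in blastocysts and 15.2% as higher in granulosa cells, against 6 and 2 of the 31. The near-zero ratios of TOMM40, TIMM44, SLC25A1, SLC25A6 and SLC25A31 belong to dimmer probes, whereas those of SLC25A4, SLC25A38, TOMM70 and TIMM9 were measured on brighter ones.

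**Figure D4:**
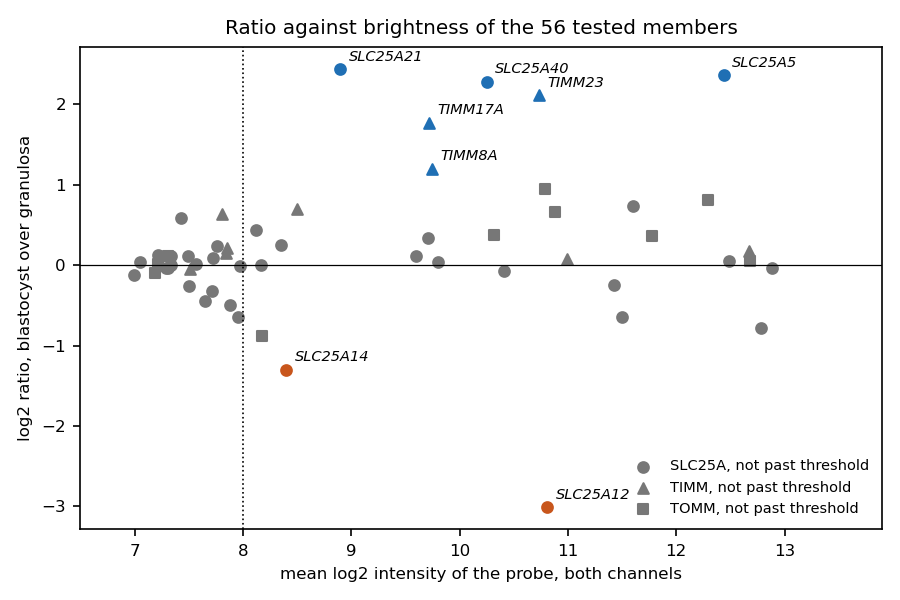
Log2 ratio of blastocyst over granulosa RNA against the mean log2 intensity of the probe over both channels, for the 56 genes tested (circles SLC25A, triangles TIMM, squares TOMM). Blue genes passed as higher in blastocysts and orange ones as higher in granulosa cells, grey ones did not pass, and the dotted line marks an intensity of 8. To its left no gene lies beyond 0.64 in either direction, and all 8 genes that passed lie to its right.

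The ratio differed between the replicates for 6 of the 56 genes, by an F test in limma at an adjusted p under 0.05 and a range of at least 1. On the whole array this was the case for 17.6% of genes. SLC25A12 had replicate ratios of -2.89, -4.16 and -1.99 (adjusted p of 2.07e-06 in limma's F test), with blastocyst pool 2 lowest and granulosa pool 2 highest. SLC25A37 had -0.29, 0.07 and 1.23 (adjusted p of 1.68e-05 in limma's F test). Its levels were 9.52, 9.95 and 10.17 in blastocysts and 9.80, 9.88 and 8.94 in granulosa cells, so that granulosa pool 3 stood below the other five pools. TIMM8B had 0.70, 0.33 and -0.50, the last with the opposite sign, and granulosa pool 3 was its highest pool. SLC25A5, TIMM23 and TIMM17A differed between replicates in size alone, with ranges of 1.03, 1.13 and 1.04 and every replicate above 0. Granulosa pool 3 is the granulosa pool with the lowest mean levels of the fibroblast, leukocyte and endothelial markers given above. Granulosa pool 2 is the one with the highest EPCAM. It was also the highest granulosa pool for KRT8 (11.06, 13.48 and 8.76), KRT18 (8.58, 9.63 and 7.82), CLDN4 (8.12, 10.2 and 7.81), PLAC8 and DSP. The other blastocyst markers were highest in granulosa pool 1. CDH1 was dim in every pool, blastocysts included (7.25, 7.21 and 7.16). The part of the cells behind these markers in the ratios of the 6 genes was not tested.

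Partners of the import machinery, from a list of 42 genes, passed in both directions. Of 38 tested, 3 passed on the blastocyst side (7.89%, against 5.72% of all genes) and 2 on the granulosa side (5.26%, against 7.68%). The median log2 ratio was 0.12. HSPA9, the matrix Hsp70 that pulls proteins through TIM23, was at 1.45 ± 0.40, and GRPEL1, its nucleotide exchange factor, at 1.23 ± 0.11 (SD, n = 3 each). CHCHD3, a subunit of the MICOS complex of the cristae, was at 1.70 ± 0.27, with another probe at -0.03, and GRPEL1 had another probe at 0.32. On the granulosa side were TRAP1, a mitochondrial Hsp90, at -1.85 ± 0.40, with another probe at -0.11, and the gene that the array's annotation calls APOL, an older symbol that RefSeq lists for the MICOS subunit APOOL, at -1.11 ± 0.21 (SD, n = 3 each). Without the accession of the probe, its identity rests on that symbol. The adjusted p of these 5 lay between 0.00775 and 0.0271 in limma. APOL was at -0.97 without background correction and at -0.96 on net intensities, under the minimum ratio, and with the mean of a gene's probes CHCHD3, GRPEL1 and TRAP1 were under it too.

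Transporters of the mitochondrial membranes outside the SLC25 family, a list of 26 genes with 20 tested, had 3 that passed on the blastocyst side and 1 on the granulosa side, with a median of 0.18. These shares were 15% and 5%, against 5.72% and 7.68% of all genes. MPC1, a subunit of the mitochondrial pyruvate carrier, was at 2.18 ± 0.36. Its blastocyst intensity was over 30000, near the scanner's limit, on 6 of 6 arrays, so the difference is at least 4.54-fold on that probe, while another probe gave 0.48 and did not pass. SFXN4, a sideroflexin, was at 1.54 ± 0.16, and ABCB6, a transporter linked to porphyrins, at 1.31 ± 0.38. VDAC1, the main pore for metabolites in the outer membrane, was at -1.22 ± 0.41 (SD, n = 3 each), with 2 of 6 granulosa intensities over 30000. The adjusted p of these 4 lay between 0.00822 and 0.0377 in limma. VDAC1 did not pass without background correction, at -1.21 with an adjusted p of 0.0521, or with median centring, at -0.99.

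Enzymes and transporters that hand substrates to the carriers or take them over formed a list of 22 genes. Of 19 tested, 5 passed on the blastocyst side (26.3%, against 5.72% of all genes) and 1 on the granulosa side (5.26%, against 7.68%). The median was 0.11. ACLY, which splits the citrate exported by SLC25A1, was at 2.21 ± 0.64, beside the ratio of -0.03 of the dim SLC25A1 probe. The other, still dimmer SLC25A1 probe was at 0.61 ± 0.20, with an adjusted p of 0.0442 in limma, under the minimum ratio. GOT2 and GOT1, the aminotransferases of the malate-aspartate shuttle that SLC25A12 and SLC25A13 serve, were at 1.82 ± 0.66 and 1.30 ± 0.39, a direction opposite to that of SLC25A12. ARG2, the mitochondrial arginase, was at 2.33 ± 0.87 and SLC16A1, the lactate and pyruvate transporter of the cell surface, at 3.04 ± 0.85. CRAT, carnitine acetyltransferase, was at -1.87 ± 0.74, with another probe at -0.12 (SD, n = 3 each). The adjusted p of CRAT was 0.0484 and those of ACLY, GOT1, GOT2, ARG2 and SLC16A1 lay between 0.0263 and 0.0442 in limma. CRAT did not pass without background correction (adjusted p of 0.0548), with subtraction (0.0506) or without the filter (0.0529), and GOT2 not without background correction (0.052) or on net intensities (0.0582). With replicate 2 left out no gene of these 3 lists passed, and with replicate 1 or 3 left out none passed on the granulosa side.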

How the data were processed

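The files hold scanner output of 6 arrays in 2 colours, Cy3 and Cy5. Of the deposited intensity columns, which are not normalized per the file headers, the raw mean of every spot and the median of its surroundings were read by wavelength name, since granulosa array 2 lists the wavelengths in reverse. The deposited value table is a score without a stated unit. In absolute size it is the log2 net intensity of one channel divided by that of the other (100% of absolute values within 1e-04). Its column medians are -0.998, -0.998, -1.00, 1.00, 0.999 and 1.00. They are near 1 in size whichever channel is the numerator, so they do not give the direction. The match to the net intensities does. The numerator was Cy3 on granulosa array 2 and Cy5 on the other arrays. Its scale, centring and direction are thus known. Scanner and genome build: not given in the sources used here.

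Background was corrected by normexp (offset 50), and arrays were normalized by loess with control spots at weight 0, in R 4.3.3 with limma 3.58.1. Ratios read blastocyst over granulosa. The arrays of a replicate were averaged, and 3 replicates were tested against 0 with lmFit and eBayes (3.35 degrees of freedom) and Benjamini-Hochberg adjustment over 35050 of 43794 probes. These exceeded the 95th percentile of 153 negative controls on 3 or more arrays in a cell type. Per array, 65.6 to 76.7% of probes were above background in the blastocyst channel and 57 to 78.4% in the granulosa channel, and the number of arrays limits the precision. The F test over replicates used 6 ratios and a dye term. Levels are log2 intensities after Aquantile. The platform annotation names 21790 probes with 1 symbol each, none with several, and leaves 22004 unnamed; 1644 symbols were updated through RefSeq (ARS-UCD2.0) and 78 kept unmatched. A planned promoter motif search was not run, as no sequences were used here. The tests were checked on simulated data. Figures used matplotlib 3.10.9.

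Replicate numbers come from the titles. Deviations from the mean of each dye orientation correlated at 0.85 to 0.93 in the 3 same-numbered pairs and at -0.59 to -0.20 in the 6 others. The deviations cancel within an orientation, so high values in the same-numbered pairs make the others negative on average. Those negative values are not separate evidence. The numbers were treated as pairing.

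The genes and lists were chosen with earlier results of these data known. Named were all genes that passed, the 5 largest ratios in each direction, genes that differed between replicates, SLC25A4, SLC25A5, SLC25A6, SLC25A31, SLC25A3, SLC25A1, SLC25A20, TOMM20, TOMM40, TOMM70, TIMM23 and TIMM44, and up to 4 list genes that passed in each direction. Others were named for their role after their values were seen. Alternatives changed the background correction, normalization, dim-probe filter, probe choice, threshold, replicate block and replicates.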

Additional observations from a re-analysis of the deposited data

How the results depend on the processing

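All 8 genes that passed did so in 11 of the 12 alternatives that kept every replicate. On the deposited net intensities 7 of the 8 did, TIMM17A being the exception (adjusted p of 0.0509 in limma). Some of the 12 could hardly lose a gene. Dropping the minimum ratio keeps every gene that passed, and leaving out probes near the scanner's limit removed none of the 58 genes. Averaging a gene's tested probes leaves the ratio unchanged for SLC25A12, SLC25A14, SLC25A40 and TIMM8A, with 1 tested probe each. The fits with the replicate block gave 8 with and without a dye term, and changed no call among the 8. Genes passing on the whole array numbered 2539 without and 2469 with a dye term, against 1773. Without a dye term the estimated correlation within a replicate was 0, so that fit treated the 6 arrays as independent. Deviations of same-numbered arrays nevertheless correlated at 0.85 to 0.93. With a dye term the estimate was 0.66. Without a minimum ratio 12 of the 56 and 2817 genes passed, with carriers higher in granulosa cells at 4 and import genes higher in granulosa cells at 1, the additions being SLC25A17, SLC25A26, TOMM34 and TIMM22. Without normalization TOMM34 passed as well, which made import genes higher in granulosa cells 1; the median of the carriers was -0.14 there, that of all genes -0.21. Median centring gave the carriers a median of 0.05 and let TOMM22 pass. The authors' value table was taken as the log2 of its absolute scores, turned to blastocyst over granulosa. It gave medians of 0.0059 for carriers and 0.044 for import genes, with 51 of 56 signs the same as in the log2 ratios. This scale is not that of the log2 ratios. Leaving out each replicate in turn left 0 to 4 genes passing, with 0 to 2 carriers and 0 to 2 import genes higher in blastocysts, 0 to 1 carriers and 0 to 0 import genes higher in granulosa cells; the median was 0.00 to 0.05 for carriers and 0.14 to 0.50 for import genes. Genes passing on the whole array fell to 1031, 0 and 1306 without replicates 1, 2 and 3. Fewer samples are part of these fits, and of the 8 genes 3, 0 and 4 were kept. Genes differing between replicates numbered 5 to 6 in 6 alternatives. Signs turned for ratios near 0: SLC25A6 to 0.01 without background correction and with subtraction, and to 0.04 with median centring and with net intensities; SLC25A1 to 0.01 without background correction, with subtraction and with net intensities, and to 0.29 with the mean of a gene's probes; SLC25A4 to 0.16 with median centring; TOMM40 to -0.17 without normalization; SLC25A37 to -0.03 with the mean of probes. With a replicate left out the ratios were -0.08 to 0.52 for TIMM8B, -0.01 to 0.07 for TOMM40, -0.13 to 0.09 for SLC25A4, -0.13 to 0.21 for TOMM70, -0.11 to 0.65 for SLC25A37 and -0.09 to 0.08 for SLC25A6. The cause of these changes was not tested. Dim probes limit what could be measured.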

Other observations

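The citric acid cycle and the pyruvate dehydrogenase complex, which use what several carriers deliver, were a list of 29 genes with 25 tested. Of these, 7 passed on the blastocyst side (28%, against 5.72% of all genes) and 0 on the granulosa side (0%, against 7.68%) in limma. An unadjusted p under 0.05 in limma, in either direction, was found for 18 of 25, against 41.6% of all genes. The median log2 ratio was 0.69 against -0.02 over all genes. The largest that passed were PDHA1 at 3.67 ± 0.49, citrate synthase (CS) at 2.76 ± 0.11, PDHB at 2.44 ± 0.24 and DLAT at 1.79 ± 0.43 (SD, n = 3 each; adjusted p between 0.00375 and 0.0218 in limma), with PDHA1, PDHB and DLAT being subunits of pyruvate dehydrogenase. The blastocyst intensity of PDHB was over 30000, near the scanner's limit, on 5 of 6 arrays, so its ratio may be understated. PDHX, a further subunit, was at 0.97 ± 0.38 and did not pass. The largest ratio in size in the list did not pass either: PDK4, a kinase that inhibits the complex, named after its value was seen, was at 13.03, 14.17 and 9.47 in granulosa cells and at 7.34, 7.34 and 7.72 in blastocysts (-4.76 ± 2.67, SD, n = 3; adjusted p of 0.0877 in limma). Other probes of these genes were as low as 0.63 for PDHA1, 0.82 for PDHB and 0.09 for CS. Without replicate 2 the count on the blastocyst side was 0, and without replicates 1 and 3 it was 3 and 9. On the granulosa side the count ranged from 0 to 1 over these fits.

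Of regulators of mitochondrial content, 17 were tested of 19, with 10 of 17 at an unadjusted p under 0.05 in limma, against 41.6% of all genes. On the blastocyst side 2 passed (11.8%, against 5.72% of all genes) and on the granulosa side 0 (0%, against 7.68%). The 2 that passed were TFB1M, a methyltransferase of mitochondrial ribosomal RNA, at 1.38 ± 0.04, with another probe at 0.02, and POLG, the mitochondrial DNA polymerase, at 1.05 ± 0.38 (SD, n = 3 each, adjusted p of 0.00515 and 0.0431 in limma). TFB1M was at 0.61, under the minimum ratio, with the mean of its probes. The median log2 ratio of the list was 0.17. Over the fits with a replicate left out, 0 to 1 genes of the list passed on the blastocyst side and 0 to 1 on the granulosa side.

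The nuclear genes of mitochondrial ribosomal proteins and of the respiratory chain and ATP synthase, taken by symbol prefix after results were seen, had medians of 0.28 (75 tested, 7 higher in blastocysts, 3 in granulosa cells) and 0.34 (80 tested, 11 and 3). The shares that passed were 9.33% and 4% for the ribosomal proteins and 13.8% and 3.75% for the respiratory genes, against 5.72% and 7.68% of all genes. The median of the 20 import genes, 0.28, was close to both, and that of the 36 carriers, 0.01, was below them; no difference between these groups was tested.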
